A study of Mus musculus with 18 samples.

Results

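Neurons and oligodendrocytes both descend from neural stem cells, and 9 genes that mark the neuronal side of that choice were followed here in cultures driven toward oligodendrocytes. They were taken by name from the deposited table, in which they are 9 of 38046 genes: Dcx, Tubb3, Dlx1, Dlx2, Gad1, Gad2, Stmn2, Map2 and Rbfox3. The mouse cells were oligodendrocyte progenitor cells (OPCs) that had been derived from primary neural stem cells and kept as clonal lines. Per the labels, 3 lines were control (clones D7, D3 and E8) and 3 were Thap1 null (clones 3F, D6 and 7F), and each line was sequenced once at each of 3 stages. OPC libraries came from cells in growth medium with the mitogen PDGF-AA, and DIV2 and DIV4 libraries from cells after 2 and 4 days in oligodendrocyte differentiation medium with the thyroid hormone T3. Each of the 6 groups therefore held 3 libraries, all 18 libraries came from total RNA depleted of ribosomal RNA, and each replicate is a different clone. How the null clones were made, and the strain, sex and age of the source animals, are not given in the sources used here.

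The 9 genes cover successive steps of neuronal life. Dlx1 and Dlx2 encode homeobox factors that specify GABAergic interneurons in the ventral forebrain and hold back the oligodendrocyte fate there, and Gad1 and Gad2 encode the enzymes that make GABA. Doublecortin (Dcx), class III beta-tubulin (Tubb3), MAP2 and stathmin-2 (Stmn2) build or tune the neuronal microtubule skeleton, and Rbfox3 encodes NeuN, a splicing factor of mature neurons. In non-neuronal cells the repressor REST, bound at an element called RE1, keeps many neuronal genes silent. Some of these markers are not exclusive to neurons: short forms of MAP2 are also made by cells of the oligodendrocyte lineage.

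In the deposited values the control OPC libraries were filled by a few noncoding features, and protein-coding transcripts held 5.05% to 9% of their TPM (a length-corrected transcript level that sums to 1000000 in each library), against 19.1% to 38.8% in the other 15 libraries. Levels are therefore given as rescaled TPM, the summed TPM of a gene divided by a per-library median-of-ratios factor (0.136 to 0.315 in control OPCs, 0.715 to 2.04 elsewhere). For Map2 the scaling decides the direction of each change measured from or against control OPCs, and this is stated beside those results. Thap1 itself was examined first. Its full-length coding transcript (ENSMUST00000036807) lay at 1.93 to 4.34 rescaled TPM in the 9 control libraries and at 0.190 to 0.768 in the 9 libraries labelled null, with no overlap. A shorter Thap1 transcript with a retained intron (ENSMUST00000127536) was higher in the null libraries, at 4.81 to 11.3 against 0.739 to 3.86, so the sum over Thap1 transcripts was not lower in null cells. In limma that sum was called higher in null OPCs (log2 difference 0.77, adjusted p = 0.0348). The difference did not pass at DIV2 (0.685, adjusted p = 0.129) or at DIV4 (0.219, adjusted p = 0.637). Mbp (myelin basic protein, the defining oligodendrocyte marker) stood at 92.3 to 4772 rescaled TPM at DIV2 and DIV4. The 10 microglial genes summed to 0.415 to 4.78, with C1qa, C1qb and Ctss listed at 0 in all libraries and P2ry12 the highest of them, at up to 4.40.

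Of the 9 genes, 3 were expressed throughout and 6 were near or at 0. Map2 had the highest mean level over the 18 libraries (55.5 rescaled TPM), followed by Tubb3 (40.0) and Dcx (3.37), and only these passed the test's filter, a mean of at least 1. TPM is corrected for length, so levels can be ordered between genes. Map2 exceeded Tubb3 in 6 of 6 OPC libraries, in 2 of 6 at DIV2 and in 1 of 6 at DIV4, and Tubb3 exceeded Dcx in every library. The other means were 0.403 for Gad2, 0.310 for Gad1, 0.200 for Rbfox3, 0.179 for Dlx2, 0.0946 for Dlx1 and 0.0301 for Stmn2. The ranges of those 6 genes overlapped, so their order is not resolved. Sequencing depth is unknown, and a level near 0 is given as listed, with no detection limit.

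**Figure D1:**
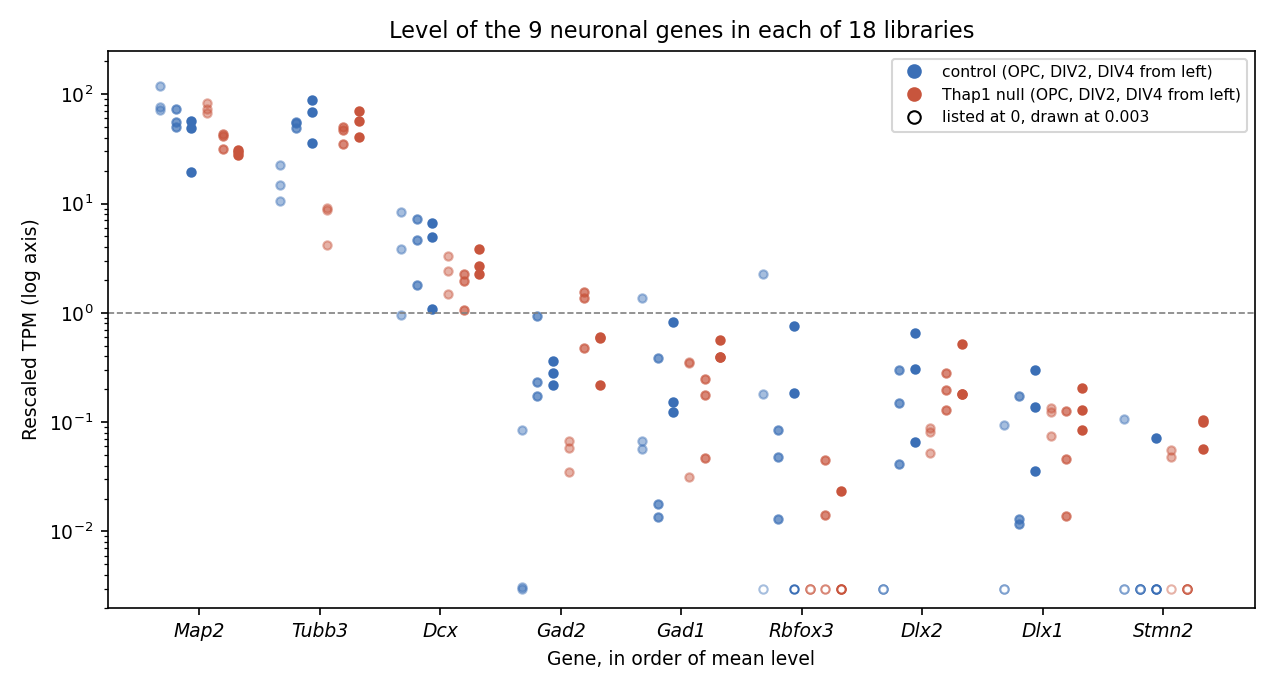
Each point is the rescaled TPM of a gene in 1 library on a log axis, for control (blue) and Thap1 null (red) clones with OPC, DIV2 and DIV4 from left to right; open circles are values listed at 0, and the dashed line is the filter on the mean. Map2, Tubb3 and Dcx lie above the line in all but 1 library, and the other 6 genes lie below it in all but 4 values.

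The sequence just upstream of the 3 expressed genes differed in base composition, as the RefSeq promoters (GRCm38.p6, 250 bases before to 50 after the annotated start) show. GC made up 77.7% of the Map2 window, higher than in 97.9% of all 32851 promoters, 67.3% for Tubb3 and 43% for Dcx, against a median of 52.7%. A window was found for 8 of the 9 genes. In all, 2 motifs were searched on both strands: the RE1 element, as AGCACC, any 2 bases and GGACAGC, and the THAP1 core, as TNNGGGCA or TNNTGGCA. The RE1 letters occurred in 10 promoters of all genes (0.0304%), of which 1 was Gad2, at positions -163 to -149 from the start used for that promoter. That start lies downstream of the annotated Gad2 gene start (chr2:22622205), so the match is nearer to the gene start than these positions say. The THAP1 core occurred in 25.5% of all promoters and, among the 8, only in Rbfox3, with 2 matches. A match is a description of letters and not a bound site. The stretches below end before the annotated gene or, for Rbfox3, at the start used for its promoter. They are printed for the expressed genes and for those 2 with a match, which stands in capitals. The Rbfox3 stretch lies inside the annotated gene (chr11:118489762-118911597, minus strand), so its 2 matches are not upstream of the whole gene.
Map2, chr1:66175079-66175272, plus strand: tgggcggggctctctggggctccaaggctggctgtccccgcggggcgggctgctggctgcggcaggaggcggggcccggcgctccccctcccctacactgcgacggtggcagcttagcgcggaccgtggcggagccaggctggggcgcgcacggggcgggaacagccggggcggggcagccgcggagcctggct
Tubb3, chr8:123411303-123411423, plus strand: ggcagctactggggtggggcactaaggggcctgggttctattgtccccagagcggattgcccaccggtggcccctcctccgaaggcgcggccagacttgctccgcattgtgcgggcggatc
Dcx, chrX:143933312-143933469, minus strand: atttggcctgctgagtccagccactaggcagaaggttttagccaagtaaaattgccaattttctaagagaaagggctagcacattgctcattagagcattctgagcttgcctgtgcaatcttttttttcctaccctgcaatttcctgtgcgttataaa
Gad2, chr2:22622077-22622204, plus strand: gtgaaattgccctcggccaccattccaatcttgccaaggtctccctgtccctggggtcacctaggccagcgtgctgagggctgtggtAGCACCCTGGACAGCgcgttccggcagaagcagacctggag
Rbfox3, chr11:118761042-118761291, minus strand: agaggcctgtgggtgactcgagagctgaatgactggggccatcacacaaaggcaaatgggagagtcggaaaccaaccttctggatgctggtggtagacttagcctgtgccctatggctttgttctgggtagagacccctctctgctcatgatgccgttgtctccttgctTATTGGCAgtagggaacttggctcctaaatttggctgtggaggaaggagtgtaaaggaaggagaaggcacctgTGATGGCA

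Map2 (chr1:66175273-66442583, plus strand), whose protein stabilizes microtubules in dendrites, was highest in OPCs and lower at each later stage in all 6 clones. In control clones D7, D3 and E8 it stood at 72.3, 75.8 and 118.3 rescaled TPM in OPCs, 49.9, 55.4 and 74.0 at DIV2, and 19.3, 49.2 and 56.5 at DIV4. In null clones 3F, D6 and 7F it stood at 83.9, 72.7 and 67.5 in OPCs, 31.6, 43.2 and 41.2 at DIV2, and 30.6, 27.9 and 29.6 at DIV4. The genotypes overlapped in OPCs and at DIV4 and did not at DIV2, and clone E8 was the highest control at each stage. On deposited TPM E8 was the lowest control as OPCs, at 16.1 against 21.7 in D7 and 23.9 in D3. There the control OPC values all lay below those of the null clones (52.0 to 119.5). From OPC to DIV4 the log2 change in limma was -1.17 in control (SE 0.31, adjusted p = 0.0114) and -1.31 in null (SE 0.31, adjusted p = 0.00494). From OPC to DIV2 it was -0.94 in null (adjusted p = 0.0364) and -0.55 in control, which did not pass (adjusted p = 0.189). These directions rest on the rescaling in control cells: on deposited TPM the control OPC to DIV4 change of Map2 was 1.52 (adjusted p = 0.00983), and the null one was -0.87 (adjusted p = 0.226). The control OPC to DIV4 call was also lost with protein-coding transcripts only and with only the libraries compared (both adjusted p = 0.194). The null OPC to DIV2 call was lost on deposited TPM (adjusted p = 0.503), with quantile normalization (0.0924), with coding transcripts only (0.107), without the filter (0.0818) and when any 1 null clone was left out (0.127 to 0.297), and the null OPC to DIV4 call without 3F (0.0524) or D6 (0.0559). In a culture of mixed cells, fewer cells with a transcript and less of it per cell cannot be told apart.

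The annotated Map2 transcripts fall into a long form (1 transcript, 1828 codons), which encodes the dendritic high-molecular-weight protein, and short forms (6 transcripts, 466 to 498 codons). Among the short forms, the 498-codon transcript ENSMUST00000114018 alone held 37.9% of the Map2 signal over all libraries. The short forms made up 39.3% to 64.8% of Map2 in each library and the long form 7.36% to 15.4%. The other 17 transcripts encode other or partial proteins of at most 608 codons or none, and they held 21.3% to 45.2%. The short forms were the largest class in 17 of 18 libraries, the exception being control E8 as OPCs, where those other transcripts held more (45.2% against 39.3%). In that library the long form was also at its highest, 18.2 rescaled TPM, against 6.92 to 9.85 in the other 5 OPC libraries. The short forms stood at 43.9 ± 5.37 rescaled TPM (SD, n = 3) in control OPCs and 25.7 ± 12.9 (SD, n = 3) at DIV4, and at 43.6 ± 4.56 and 18.3 ± 1.39 (SD, n = 3) in null. The split between transcripts is the estimate of the authors' quantification, and no test was made on it.

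**Figure D2:**
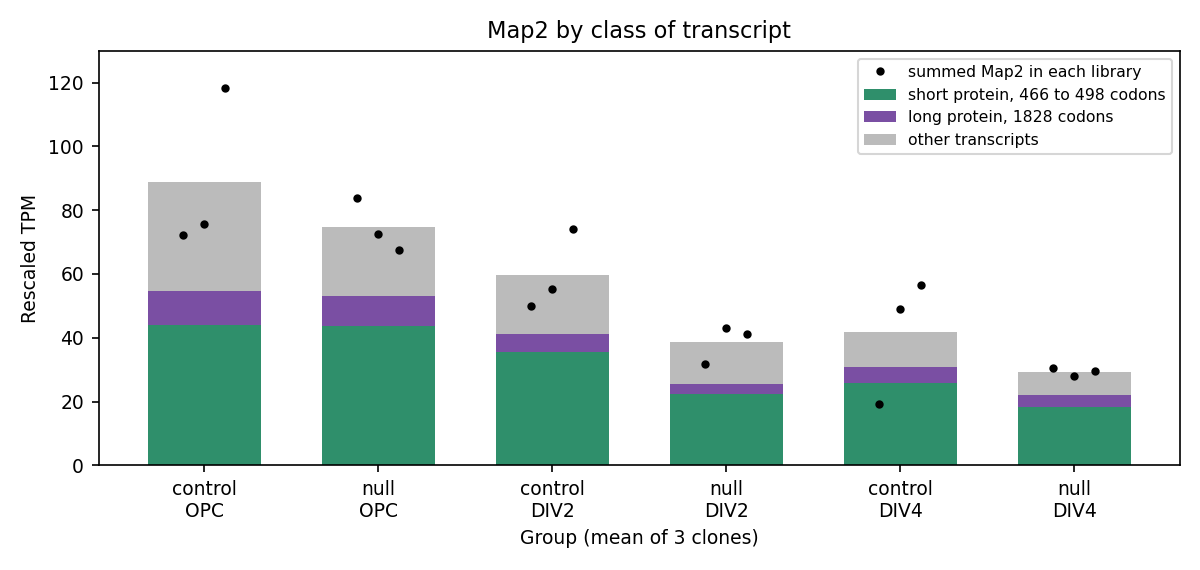
Bars give the mean rescaled TPM of 3 clones per group, stacked by class of Map2 transcript (short protein, long protein, and the other transcripts), and black points give the summed Map2 level of each library. The short class is the largest part of each bar, and the summed level drops from OPC to DIV4 in both genotypes.

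Tubb3 (chr8:123411424-123422015, plus strand), the beta-tubulin used as a standard marker of young neurons, rose during differentiation toward oligodendrocytes. In control clones D7, D3 and E8 it stood at 10.6, 22.4 and 14.7 rescaled TPM in OPCs, 55.3, 54.9 and 48.9 at DIV2, and 87.8, 35.5 and 68.5 at DIV4. In null clones 3F, D6 and 7F it stood at 4.21, 8.81 and 9.03 in OPCs, 35.1, 50.1 and 46.8 at DIV2, and 40.4, 70.7 and 57.1 at DIV4. All 6 clones were higher at DIV2 than as OPCs, and 5 of 6 were higher still at DIV4, control D3 being the exception. The limma log2 change from OPC to DIV2 was 1.74 in control (SE 0.34, adjusted p = 0.00170) and 2.48 in null (SE 0.34, adjusted p = 0.000198). From OPC to DIV4 it was 1.91 in control (adjusted p = 0.00116, and 0.0874 with only the libraries compared) and 2.80 in null (adjusted p = 5.15e-05). The rise kept its direction on deposited TPM, where the control OPC to DIV2 change was 4.13. Other tubulin genes went both ways. The log2 change of Tubb4a from OPC to DIV2 was 3.02 in control (adjusted p = 8.11e-05) and 2.05 in null (adjusted p = 0.00142). In null over that step Tuba1a also rose in limma (1.10, adjusted p = 0.00647). Tubb2b (-0.95, adjusted p = 0.0241), Tubb5 (-0.91, adjusted p = 0.0166) and Tubb6 (-1.90, adjusted p = 0.0403) fell there. The control means of these genes moved the same way over that step. Tuba1a went from 974 to 2605 rescaled TPM, Tubb2b from 328.5 to 267.9, Tubb5 from 264.2 to 184.0 and Tubb6 from 11.96 to 1.40. Of the list of 17 other tubulin, microtubule-associated and stathmin genes tested, 6 rose and 2 fell over that step in control, where 34.6% of all tested genes were called, and 6 rose and 3 fell in null, against 27.4%.

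Dcx (chrX:143855842-143933311, minus strand), which binds microtubules in migrating neuroblasts, differed widely between clones and passed at no stage step. In control clones D7, D3 and E8 it stood at 0.948, 8.34 and 3.86 rescaled TPM in OPCs, 1.79, 4.61 and 7.21 at DIV2, and 1.08, 6.57 and 4.92 at DIV4. In null clones 3F, D6 and 7F it stood at 1.49, 2.41 and 3.28 in OPCs, 1.07, 1.97 and 2.25 at DIV2, and 2.68, 2.26 and 3.81 at DIV4. Control D7 was the lowest control at each stage and D3 or E8 the highest, with the null clones between or near D7. The log2 changes of Dcx from OPC to DIV4 were 0.03 in control and 0.22 in null (SE 0.55). On deposited TPM the control changes from OPC passed, at 1.89 to DIV2 (adjusted p = 0.00843) and 1.83 to DIV4 (adjusted p = 0.00970). The 9074-base coding transcript ENSMUST00000033642 alone held 64.4% of the Dcx signal. Clone D7 was also low in the astrocyte filament gene Gfap, at 0.0131 to 0.240 rescaled TPM over its 3 stages, where control D3 and E8 reached 100.3 and 235.3 at DIV4 and the null clones 80.0 to 139.4. Astrocyte genes did not all follow Gfap in D7. At DIV2 Slc1a2 stood at 0.260, 4.65 and 4.83 in D7, D3 and E8, and S100b at 99.5, 203.3 and 88.2. The part of such clone differences in the Dcx levels was not tested.

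**Figure D3:**
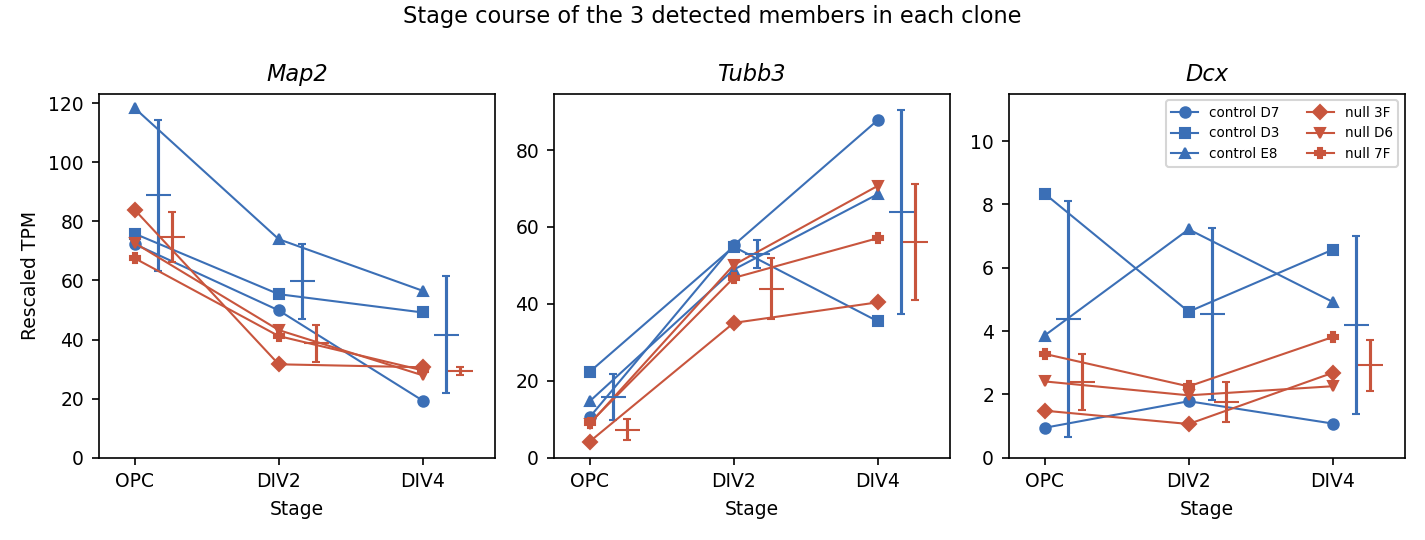
Lines follow each clone across OPC, DIV2 and DIV4 in rescaled TPM, in blue for control and red for Thap1 null, and the bars beside them give the mean and SD of 3 clones. Map2 falls and Tubb3 rises from OPC to DIV2 in all 6 clones, while the Dcx line of control D7 stays below those of D3 and E8.

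The stage steps were also counted over the 3 genes that could be tested. From OPC to DIV2, 1 of 3 was called in control, where 34.6% of all 12439 tested genes were called, and 2 of 3 in null, against 27.4%. From OPC to DIV4, 2 of 3 were called in control, against 31.5%, and 2 of 3 in null, against 33% of all genes. From DIV2 to DIV4 limma called 0 of 3 in control, against 0.249% of all genes, and 0 of 3 in null, against 1.68%. None of the 3 had an unadjusted p under 0.05 over that last step in either genotype. With 3 genes these counts do not set the group apart from other genes.

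The genotype comparison asks whether loss of Thap1 shifts these genes at a given stage, and no member was called at any stage. In OPCs, 0 of 3 passed in limma, where 11.2% of all tested genes did, and 1 of 3, Tubb3, had an unadjusted p under 0.05. At DIV2 the count was 0 of 3, against 2.68%, and at DIV4 0 of 3, against 4.57%, with none at an unadjusted p under 0.05 at either stage. All 9 log2 differences, 3 genes at 3 stages, were negative, that is lower in null, and on deposited TPM the 3 in OPCs were positive. Their median was -0.43 in OPCs, -0.61 at DIV2 and -0.23 at DIV4, where the median over all tested genes was 0.06, 0 and 0.

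Tubb3 in OPCs was the member nearest to a genotype call. The 3 null clones (4.21 to 9.03 rescaled TPM) all lay below the 3 control clones (10.6 to 22.4), with means of 7.35 ± 2.72 and 15.9 ± 5.99 (SD, n = 3). The log2 difference was -1.02 (SE 0.34, adjusted p = 0.0712 in limma), and a two-sided exact permutation test gave p = 0.1, the smallest that 3 against 3 clones allow. The difference passed without control D7 (-1.26, adjusted p = 0.0319) and with quantile normalization (-1.06, adjusted p = 0.0470). On deposited TPM it was 0.79 in the other direction (adjusted p = 0.0559). At DIV2 and DIV4 the Tubb3 clones of both genotypes overlapped, with log2 differences of -0.28 and -0.13.

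Map2 separated the genotypes at DIV2 alone among the stages, by levels that did not overlap. Null clones lay at 31.6 to 43.2 rescaled TPM and control clones at 49.9 to 74.0. The log2 difference was -0.61 (SE 0.31, adjusted p = 0.405), and the exact permutation test gave p = 0.1. In OPCs the difference was -0.22 and turned to 1.84 on deposited TPM (adjusted p = 0.00319), to 0.16 with protein-coding transcripts only, and to 0.007 without control E8. At DIV4 it was -0.36 (adjusted p = 0.582), and -0.82 without control D7 (adjusted p = 0.0351). For Dcx the differences were -0.43, -0.89 and -0.23 at the 3 stages. Without the low control clone D7 its DIV2 difference was -1.32 (adjusted p = 0.0443).

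Whether a stage change differed between the genotypes was tested as an interaction, and 0 of 3 members passed in limma in any of the 3 steps. The share of all genes called was 0.378% for OPC to DIV2, 0.0241% for DIV2 to DIV4 and 2.41% for OPC to DIV4, and no member had an unadjusted p under 0.05. The Tubb3 rise from OPC to DIV4 was larger in null, with a log2 interaction of 0.89 (SE 0.49, adjusted p = 0.339), a value that was -1.10 on deposited TPM. Map2 gave -0.14 (SE 0.44) and Dcx 0.20 (SE 0.78) for the same step.

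The interneuron fate genes stayed near 0. Dlx1 (chr2:71528113-71533981, plus strand) did not exceed 0.2998 rescaled TPM, its highest value being control D7 at DIV4, and it was listed at 0 in control D3 and E8 as OPCs. Dlx1 overlaps an antisense gene, Dlx1as, and reads of both cannot be told apart unless quantification used strand, which is not given in the sources used here. Dlx2 (chr2:71543408-71546754, minus strand) was listed at 0 in all 3 control OPC libraries and at 0.0809, 0.0887 and 0.0524 in null 3F, D6 and 7F. It was higher at DIV4 than as OPCs in 6 of 6 clones, and stood there at 0.651, 0.309 and 0.0656 in control D7, D3 and E8, and at 0.179, 0.179 and 0.521 in null 3F, D6 and 7F. The OPC groups did not overlap (exact permutation p = 0.1), but these levels are a small part of 1 TPM and the zeros may be failed estimates. The control OPC libraries, which hold the zeros of Dlx1 and Dlx2, also listed the fewest transcripts above 0. They listed 54031 to 59435, against 65662 to 70964 in the other libraries. Without a filter, no Dlx2 change passed in limma, the nearest being control OPC to DIV4 (0.40, adjusted p = 0.0710).

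The genes of the GABA-synthesizing enzymes were under 1 rescaled TPM in most libraries. Gad2 (chr2:22622205-22693874, plus strand) was lowest in OPCs, at 0.00277, 0.00309 and 0.0855 rescaled TPM in control D7, D3 and E8 and at 0.0578, 0.0353 and 0.0665 in null 3F, D6 and 7F. At DIV2 it stood at 0.173, 0.234 and 0.932 in the same control clones and at 1.54, 0.482 and 1.37 in the null clones. At DIV4 it stood at 0.364, 0.284 and 0.218 in control and 0.221, 0.601 and 0.583 in null. All 6 clones were higher at DIV2 than as OPCs, and null 3F and 7F at DIV2 were the only values above 1. Tested without a filter, over 30395 genes, the null rise from OPC to DIV2 passed in limma (log2 change 0.98, SE 0.20, adjusted p = 0.00733) and the control one did not (0.45, adjusted p = 0.185). The genotypes overlapped at DIV2 (exact permutation p = 0.2), and the interaction did not pass (0.53, adjusted p = 0.620). Over all libraries 52.5% of the Gad2 signal lay in a 721-base processed transcript with no coding sequence (ENSMUST00000156728), and 47.5% in the 585-codon transcript that makes the enzyme. In null 3F and 7F at DIV2 that processed transcript held 1.07 and 0.781 rescaled TPM. The 585-codon transcript reached at most 0.592 in any library, in null 7F at DIV2.

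Gad1 (chr2:70553072-70602014, plus strand) ranged from 0.0136 to 1.36 rescaled TPM. Its highest values were both in control E8, 1.36 as OPCs and 0.833 at DIV4, while the same clone stood at 0.0180 at DIV2. The E8 OPC library had the smallest rescaling factor (0.136), and on deposited TPM its Gad1 value was 0.186, against 1.70 in E8 at DIV4. The genotypes overlapped at each stage. The 593-codon transcript that makes the enzyme held 24.1% of the Gad1 signal, and shorter or noncoding transcripts held the rest. In control E8 as OPCs the 593-codon transcript held 0.108 of the 1.36.

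The mature-neuron markers were at or near 0 in most libraries. Stmn2 (chr3:8509360-8561606, plus strand), which regulates microtubules in growing axons, was listed at 0 in 11 of 18 libraries, including all 6 at DIV2, and reached at most 0.107. Rbfox3 (chr11:118489762-118911597, minus strand) was listed at 0 in 8 libraries, among them all 3 null OPC libraries. It reached 2.26 in control E8 as OPCs and 0.751 in control D3 at DIV4, and at most 0.186 elsewhere. On deposited TPM Rbfox3 stood at 0.308 in that E8 library and at 1.52 in that D3 library. The value of 2.26 lay wholly in a 301-base processed transcript without coding sequence (ENSMUST00000128863), which also held 0.693 of the D3 value. The NeuN coding transcripts therefore reached at most 0.186 in any library.

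The wider neuronal lists also held expressed genes beside genes near 0. Of 20 general neuronal genes, 10 passed the filter, of 19 neuroblast genes 10, of 24 GABAergic genes 7 and of 10 glutamatergic genes 0. The 10 glutamatergic genes summed to between 0.141 and 0.784 rescaled TPM in every library. Slc32a1, the vesicular GABA transporter, was listed at 0 in 16 of 18 libraries and Snap25, a synaptic fusion protein, was at 0.0355 to 3.28. Stage counts in these lists are read against the 34.6% of all tested genes called from OPC to DIV2 in control and the 27.4% in null, and lists this small are not set apart from other genes by them. From OPC to DIV2, the 10 tested general neuronal genes gave 1 rise and 2 falls in control and 4 rises and 0 falls in null. The 10 neuroblast genes gave 2 rises and 1 fall in control and 2 rises and 5 falls in null over that step. Of the 7 GABAergic genes 0 rose and 1 fell in control, and 2 rose and 1 fell in null.

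Genotype calls in these lists were few, and they were led by Mapt, the axonal microtubule-associated protein tau. At DIV2 Mapt stood at 11.96, 12.3 and 9.62 rescaled TPM in control D7, D3 and E8 and at 72.4, 55.4 and 62.1 in null 3F, D6 and 7F. The null clones were far above the control clones, with a log2 difference of 2.39 (SE 0.29, adjusted p = 0.000211), and the call held in each of the 11 alternatives computed for it (adjusted p = 0.000149 to 0.00776). At DIV4 the Mapt difference was 1.39 (adjusted p = 0.0137), lost on deposited TPM (0.170), without null 3F (0.0605) and without null 7F (0.108). From OPC to DIV2 Mapt rose in null (1.39, adjusted p = 0.00266) and the control change was -0.54 (adjusted p = 0.164), while the interaction did not pass (1.93, adjusted p = 0.0592). Most of the Mapt signal, 82.4% over all libraries, was the 372-codon transcript ENSMUST00000106992. Celf4, an RNA-binding protein of neurons, was higher in null by 2.04 at DIV2 (SE 0.27, adjusted p = 0.000576), at 6.86, 2.82 and 5.09 in the null clones against 0.155 to 0.584 in control. Its DIV4 difference of 1.06 (adjusted p = 0.0410) was lost on deposited TPM (0.149), with only the libraries compared (0.117), and without control D7 (0.0894), control E8 (0.0805), null 3F (0.214) or null 7F (0.260).

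**Figure D4:**
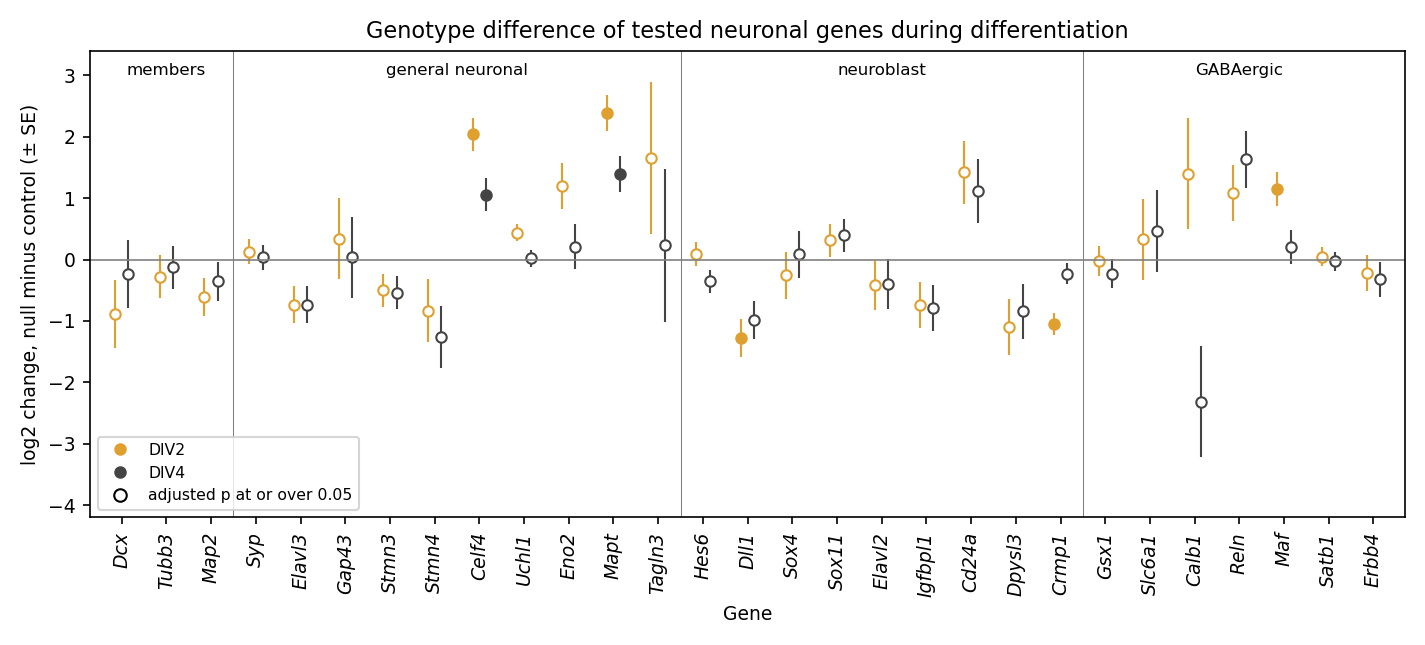
Points give the limma log2 difference, null minus control, with its SE at DIV2 (orange) and DIV4 (dark grey) for genes of the members and 3 neuronal lists, filled where the adjusted p was under 0.05. Mapt and Celf4 are filled above 0 at both stages, and the 3 members are open and below 0.

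The 2 called general neuronal genes at DIV2 were 2 of 10 tested, both higher, with a list median of 0.39 against 0 for all genes, of which 2.68% were called. At DIV4 the same count of 2 of 10, against 4.57% of all genes, had a median of 0.04. Among neuroblast genes 2 of 10 were lower in null at DIV2 (list median -0.34): Crmp1, which mediates semaphorin signals in growing axons, by -1.04 (adjusted p = 0.00424), and the Notch ligand Dll1 by -1.27 (adjusted p = 0.0410). The Crmp1 call was lost on deposited TPM (adjusted p = 0.132), and the Dll1 call there (0.0961), with only the libraries compared (0.106) and without control D7 (0.0738), control E8 (0.192), null 3F (0.294) or null 7F (0.352). In OPCs, where 11.2% of all genes were called, 1 of 10 was higher, the surface glycoprotein gene Cd24a (1.76, adjusted p = 0.0409). That call was lost with only the libraries compared (0.168) and without 5 of the 6 clones in turn (0.0748 to 0.210, control D7 excepted). Of the GABAergic list 1 of 7 was higher at DIV2, the transcription factor Maf (1.14, adjusted p = 0.0397). It was lost on deposited TPM (0.149), with only the libraries compared (0.0649) and without any 1 clone other than null D6 (0.0841 to 0.299).

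Among tubulin and microtubule-associated genes, 1 of 17 was lower in null OPCs (Map6, -0.48, adjusted p = 0.0234), 1 was higher at DIV2 (Mapt), and at DIV4 Mapt was higher and Tubb4a lower (-1.54, adjusted p = 0.0354). The Map6 difference was 1.10 on deposited TPM, and its call was lost with coding transcripts only (0.337), with only the libraries compared (0.200), and without control E8 (0.0552) or any 1 null clone (0.0864 to 0.119). The Tubb4a call was lost with only the libraries compared (0.164) and without control D7 (0.115), null 3F (0.136), null 7F (0.202) or null D6 (0.0739). All 13 genes of the REST complex and related repressors passed the filter. Rest itself stood at 2.14 to 5.32 rescaled TPM in all 18 libraries, and it rose in null from OPC to DIV4 (0.76, adjusted p = 0.000579) and not in control (0.14, adjusted p = 0.428). The difference between those changes did not pass (0.61, adjusted p = 0.0890). In OPCs 2 of 13 were called lower in null, where 11.2% of all tested genes were called. They were the H3K9 methyltransferase gene Ehmt2 (-0.75, adjusted p = 0.00152) and the REST corepressor gene Rcor1 (-0.75, adjusted p = 0.0179). On deposited TPM both turned, Ehmt2 to 1.24 and Rcor1 to 0.56. With only the libraries compared neither passed (0.0810 and 0.117). Rcor1 was also lost with coding transcripts only (0.103) and without control E8 (0.0716), null 3F (0.0577) or null 7F (0.159). At DIV2 and DIV4 limma called 0 of these 13, against 2.68% and 4.57% of all tested genes.

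Of the markers of other cells, Mobp, a myelin protein gene, was lower in null by -3.57 at DIV2 (adjusted p = 0.0225) and by -5.49 at DIV4 (adjusted p = 0.00104), the only called gene of 9 tested oligodendrocyte genes at each stage, where 2.68% and 4.57% of all genes were called. The DIV2 call of Mobp was lost without control D3 (0.0667), control E8 (0.0845), null 3F (0.179) or null 7F (0.180), and the DIV4 call with only the libraries compared (0.116). Of 8 astrocyte genes 0 were called in the genotype comparisons. Of 8 neural stem cell genes 3 (Sox2, Pax6 and Msi1) were lower in null OPCs, against 11.2% of all genes called there, and 0 later. Of 9 OPC genes Cspg4 was lower in null OPCs and Olig1 at DIV4. On deposited TPM the OPC differences turned, to 1.39 for Sox2, 0.19 for Pax6, 0.43 for Msi1 and 0.54 for Cspg4. With only the libraries compared Sox2, Pax6, Msi1 and Cspg4 did not pass (0.0594 to 0.231). Without null 7F none of those OPC calls nor that of Olig1 passed (0.0534 to 0.213). In the microglial and mesenchymal lists 1 gene each passed the filter, and the microglial one, P2ry12, was called higher in null at DIV4 (1.15, adjusted p = 0.0169), a call lost without control E8 (0.0578), null 3F (0.0724) or null 7F (0.0877). The makeup of the cultures was not measured, and the part of these marker differences in the neuronal gene levels was not tested.

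For each expressed member, genes whose levels followed it most closely were found by Pearson's r over the 18 libraries, among genes with a mean of at least 5 rescaled TPM. This is a description, since the libraries share clones and stages. Map2 was followed by the adhesion receptor gene Bai3 (r = 0.92), Strbp (0.916) and the protein kinase A subunit gene Prkar2b (0.9). Tubb3 was followed by Tcf25 (r = 0.974), catalase (Cat, 0.972) and Igsf11 (0.964). Among the genes most like Dcx were the astrocyte membrane protein gene Mlc1 (r = 0.836) and Lrig1 (0.814). Mlc1 was at most 0.0479 in control D7 and reached 96.0 in control E8 at DIV4, and D7 was also the lowest control clone for Dcx. Between the members, r was -0.698 for Tubb3 and Map2, 0.363 for Dcx and Map2 and 0.14 for Dcx and Tubb3.

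Tcf25 is also a neighbour of Tubb3, ending 7588 bases before it on the same strand (chr8:123373753-123403835). It changed over a narrower range, 26.0 to 48.8 rescaled TPM against 4.21 to 87.8 for Tubb3. Mc1r, which lies between them, was at 0.0787 to 1.05. A further annotated gene, Gm20388, spans Tubb3 on the same strand and stood at 5.23 to 17.5. Of the 31-base words in Tubb3, 3.21% also occur in transcripts of other genes, and the share was at most 3.97% for any of the 9 genes.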

How the data were processed

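The authors deposited 1 table of TPM (transcript abundance corrected for length) per Ensembl transcript for 18 libraries, each summing to 1000000 over 93666 transcripts. STAR, Picard and mm10 are named in the submitters' processing notes, without versions. The quantifier, annotation and filters are not given in the sources used here. Depth is unknown, so precision rests on 3 clones per group. Transcripts sharing a gene symbol were added up, which gave 38046 genes, after 25 names turned into dates were restored. Median-of-ratios factors used 14689 genes above 0 in all libraries. Rescaled TPM was tested as log2(value + 1) with limma 3.58.1 in R 4.3.3, over 12439 genes with a mean of at least 1, in 1 model of all 18 libraries with a mean trend and Benjamini-Hochberg adjustment. A call means an adjusted p under 0.05, and fold changes are on that scale, which understates low genes. The fit was tested on simulated data. For a single gene and stage, the 3 control and 3 null clones were compared by an exact two-sided permutation test.

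Positions came from GENCODE M21 on GRCm38, which held 96.6% of the transcripts. Members and lists were chosen with earlier results of these data known. Named genes were the members, up to 3 called rises and falls per list and genotype comparison, defining markers of other cells, Rest and Thap1, and the 3 genes most like each expressed member. Some results under this rule are not reported here. Gm20388, Mc1r, Snap25, Slc32a1, Mbp, Gfap, Tuba1a, Tubb2b, Tubb5 and Tubb6 were named after their values were seen. The OPC to DIV4 comparisons and the use of protein-coding transcripts only were added after seeing the data. Alternatives were deposited TPM, quantile normalization, 0.1 as pseudocount, a filter at a mean of 5 or none, no trend, a log2 change of at least 1, only the libraries compared, each clone left out and the clone as a replicate block. The clones pair the libraries across stages, since each line was sampled at all 3. Deviations from the group means correlated at 0.118 on average between libraries of 1 clone (range -0.014 to 0.425) and at -0.059 between clones. Labels do not say whether the clones came from separate animals, so p-values measure the spread between lines. No 2 libraries were copies (highest correlation 0.955).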

Additional observations from a re-analysis of the deposited data

How the results depend on the processing

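With the clone as a replicate block the counts of called members were the same in all 12 comparisons, 2 in null OPC to DIV2 among them, and no member's call changed, though over all genes the calls went from 209 to 446 in null DIV2 to DIV4 and from 300 to 475 in the OPC to DIV4 interaction. On deposited TPM the counts became 1 for the genotype comparison in OPCs, 3 for control OPC to DIV2 and OPC to DIV4, 1 for null OPC to DIV2 and OPC to DIV4, 2 for the OPC to DIV2 interaction and 1 for that to DIV4. The log2 changes that turned there were Dcx 0.80, Map2 1.84 and Tubb3 0.79 in the OPC genotype comparison, Map2 2.08 and 1.52 from control OPC to DIV2 and DIV4, Tubb3 -1.25 and -1.10 in those interactions and Dcx -1.26 in the second. On that scale the median of all genes moved by 1.53 in the OPC genotype comparison, with 10358 genes called in place of 1397, so the turns go with a shift of most genes. With protein-coding transcripts only that median was 0.43, with 2757 calls. With only the libraries compared the calls there were 232, and in control OPC to DIV4 200 in place of 3914. Quantile normalization gave 1 member in the OPC genotype comparison and 1 in null OPC to DIV2, and turned Dcx in control OPC to DIV4 (-0.044) and Map2 in the OPC to DIV4 interaction (0.035). With protein-coding transcripts only the count was 1 in null OPC to DIV2 and 1 in control OPC to DIV4, and Map2 turned in the OPC genotype comparison (0.16) and control OPC to DIV2 (0.085), as did Dcx in the OPC to DIV4 interaction (-0.07). A log2 change of at least 1 left 1 member in null OPC to DIV2, and only the libraries compared left 0 in control OPC to DIV4. Where no cause is given, the cause was not tested.

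Leaving out 1 clone at a time gave 0 to 1 called members in each genotype comparison (OPC, DIV2 and DIV4), the 1 arising without control D7, and 1 to 2 in null OPC to DIV2 and null OPC to DIV4. Over these fits some small changes crossed 0. The genotype ranges were -1.02 to 0.11 for Dcx and -0.34 to 0.007 for Map2 in OPCs, and -0.79 to 0.14 for Dcx and -0.50 to 0.14 for Tubb3 at DIV4. Dcx ranged from -0.11 to 0.64 in control OPC to DIV2, -0.10 to 0.19 in control OPC to DIV4 and -0.45 to 0.006 in control DIV2 to DIV4, and Tubb3 from -0.068 to 0.57 in the last. Interaction ranges were -0.10 to 0.48 for Map2 and -0.25 to 0.39 for Tubb3 over DIV2 to DIV4, and -0.48 to 0.14 for Map2 over OPC to DIV4. In these fits the groups of 1 genotype have 2 clones, assumed to vary like the rest. The Tubb3 rises from OPC to DIV2 passed in every alternative run.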

Other observations

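Some neuronal genes outside the members marked single clones, and they were chosen after their values were seen. Tagln3, an actin-binding protein gene of neurons, stood at 0.170, 0.0621 and 0.161 rescaled TPM in control D7 as OPCs, at DIV2 and at DIV4, and at 7.83 to 41.0 in the other 15 libraries. Elavl4, an RNA-binding protein gene of neurons, stood at 4.75, 2.44 and 2.87 in control E8 at the same stages and at most at 0.631 in the other 15 libraries. These are differences between lines of 1 genotype, with 1 library per line and stage and no test.

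Npy, a neuropeptide gene of some interneurons, was present in all 6 OPC libraries, at 0.898, 0.961 and 2.18 rescaled TPM in control D7, D3 and E8 and at 1.42, 3.28 and 4.58 in null 3F, D6 and 7F. At DIV2 Npy was at most 0.106 and at DIV4 at most 1.23. Reln, which encodes the secreted protein reelin, stood at 13.0, 13.8 and 14.2 in null 3F, D6 and 7F at DIV4 and at 2.22, 3.42 and 6.38 in control D7, D3 and E8, without overlap and without passing in limma (1.63 on the log2 scale, adjusted p = 0.0594).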
